A study of Mus musculus with 16 samples.

Results

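ADAMTS proteases and TIMP inhibitors were followed in bulk RNA-seq of mouse flexor tendon through 10 genes, chosen by symbol from the 49568 gene symbols of the count table. They were the proteases Adamts1, Adamts2, Adamts4, Adamts5, Adamts12 and Adamts15 and the inhibitors Timp1, Timp2, Timp3 and Timp4. C57 and MRL mice were each represented by 4 uninjured tendons and by 4 tendons taken 7 days post injury (dpi), which gave 4 groups of 4 libraries. C57 (C57BL/6J) is a common inbred laboratory strain, and MRL (MRL/MpJ) is an inbred strain studied for its healing with little scar. All animals were young adult males without a transgene, the injury was a partial cut across the deep digital flexor tendon of a hind paw digit, and each library came from a single tendon with its sheath and peritendinous tissue left on. Injured libraries are named by their labels (numbers from BI-181 to BI-185 for C57 and from BI-270 to BI-275 for MRL).

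ADAMTS enzymes are secreted zinc metalloproteinases with thrombospondin motifs. Adamts1, Adamts4, Adamts5 and Adamts15 cleave the large proteoglycans aggrecan and versican, Adamts2 removes the amino-terminal propeptide of fibrillar procollagens, and Adamts12 cleaves cartilage oligomeric matrix protein. TIMPs are small secreted proteins that bind the active site of metalloproteinases. Timp3 binds to the matrix and is the TIMP that inhibits ADAMTS enzymes best, Timp1 and Timp2 chiefly inhibit matrix metalloproteinases, and Timp2 also takes part in the activation of pro-Mmp2. In tendon these genes are studied for the turnover of collagen and proteoglycan during repair.

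The genes lie on 8 chromosomes (GRCm38, GENCODE M21). Adamts1 (chr16:85793827-85803113) and Adamts5 (chr16:85856173-85901828) are neighbours on the minus strand with 53.06 kb between them. Adamts2 (chr11:50602084-50807573, plus strand) and Timp2 (chr11:118301069-118355740, minus strand) share a chromosome at a distance of 67493.5 kb. Adamts4 lies at chr1:171250421-171260637, Adamts12 at chr15:11064790-11349231 and Adamts15 at chr9:30899155-30922452. Timp1 (chrX:20870166-20874735), Timp3 (chr10:86300372-86349506) and Timp4 (chr6:115241892-115252205) each lie inside a synapsin gene on the opposite strand. Timp1 shared no exon base with Syn1, Timp3 shared 1733 exon bases with Syn3, and Timp4 shared 90 with Syn2. Each synapsin gene gave few counts, at most 138 in a library, against 178345, 80846 and 3188 counts of Timp1, Timp3 and Timp4 over all libraries. The strand setting of the counting is not given in the sources used here, so counts in exons shared with a gene on the opposite strand are uncertain.

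The upstream sequence of Timp1 is shown because this inhibitor had the largest fitted change after injury of the 10 genes in MRL tendon. It covers the 250 bases before the annotated start, chrX:20869916-20870165 on the plus strand (RefSeq, GRCm38.p6). Capitals mark the 1 match on either strand to the GC box GGGCGG.
Timp1 upstream: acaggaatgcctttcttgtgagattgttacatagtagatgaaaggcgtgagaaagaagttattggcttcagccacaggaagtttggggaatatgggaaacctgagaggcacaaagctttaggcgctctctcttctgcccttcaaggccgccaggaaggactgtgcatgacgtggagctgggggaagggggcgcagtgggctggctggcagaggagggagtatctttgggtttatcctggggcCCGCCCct
A second stretch, chrX:20870182-20870211, lies just after the start and is shown for the AP-1 variant TGAGTAA in capitals, a motif that was added to the search after this sequence had been read.
Timp1 after the start: ggtgggtggaTGAGTAAtgcgtccaggaag
RefSeq promoters were matched for 7 of the 10 genes (Timp1, Timp2, Timp3, Timp4, Adamts1, Adamts2 and Adamts12). Both strands were searched, and no match in these windows shared a base with another. The AP-1 motif TGANTCA was in 0 of the 7 upstream windows, against 6.75% of 32851 promoters, and TGAGTAA was also in 0 of 7 upstream windows, against 2.25%. Over the whole window, which takes in the bases after the start, TGAGTAA was in 1 of 7, the Timp1 match shown, against 2.68%. The GC box was in 5 of 7 (Timp1, Timp2, Timp3, Adamts1 and Adamts2), against 32.7%, and TATAAA was in Adamts1 alone, against 12.4%. These matches describe letters in a window and are no evidence of binding.

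The libraries held 12552424 to 23741648 counts, with the injured MRL libraries the deepest (median 23460742.5, against at most 17832908 elsewhere), and 3 counts corresponded to 0.126 to 0.241 counts per 1000000 (CPM). The tenocyte markers Scx, Tnmd and Mkx were detected in all 16 libraries. Several libraries stood apart before any gene was tested. In C57 uninjured replicate 4, 12 epidermis markers summed to 86550 CPM, against 28.7 to 773 CPM in all other libraries, and its Spearman correlations with the other uninjured C57 libraries were 0.799 to 0.834. In BI-181, 12 skeletal muscle markers summed to 66360 CPM, against 1882 in BI-183 and at most 20.6 elsewhere. MRL uninjured replicate 4 had the lowest tenocyte marker sum of its group, 15890 against 23490 to 34570 CPM. BI-275 likewise had the lowest tenocyte marker sum of the injured MRL libraries, 28060 against 41210 to 59900 CPM. Its Spearman correlations with that group were 0.928 to 0.938, against 0.932 to 0.941 for MRL uninjured replicate 4 in its own. Results are also given with C57 uninjured replicate 4, BI-181 and MRL uninjured replicate 4 left out. BI-275 was not in that set and was left out only singly. Values in the text are CPM on TMM-adjusted library sizes, and changes are log2 fold changes from edgeR's quasi-likelihood test with its standard error (SE). A gene was called at a Benjamini-Hochberg adjusted p under 0.05 over all tested genes and an absolute log2 fold change over 1.

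**Figure D1:**
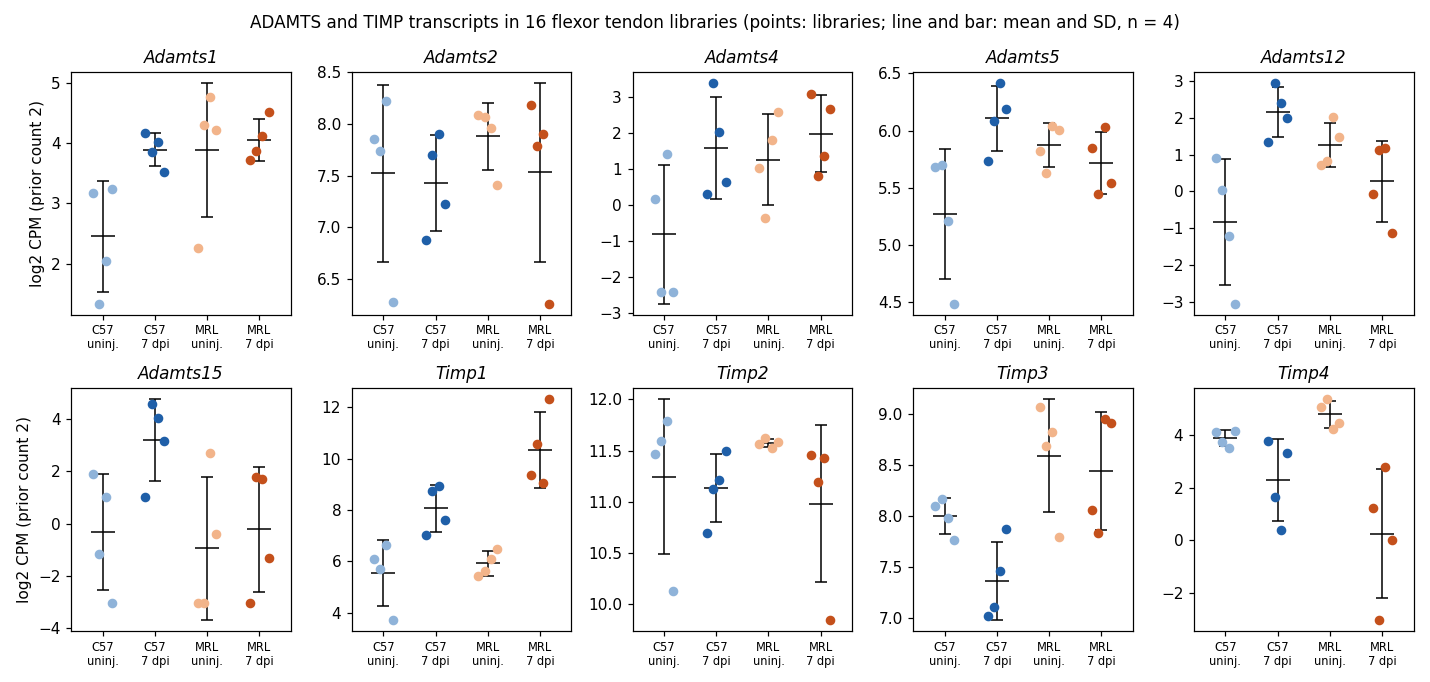
Each panel plots 1 gene, with log2 CPM on the vertical axis (scales differ between panels), the 4 groups on the horizontal axis, 1 point a library, and the mean with its SD (n = 4) in black. The 4 injured MRL points of Timp1 lie above all other points of that panel, and those of Timp4 lie below all uninjured points.

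The inhibitors Timp1 and Timp4 were the genes of this set that changed with injury in MRL tendon. Timp1 rose 31.4-fold and Timp4 fell to 0.0858 of its uninjured level. No gene of the set was called in C57 tendon, where Timp1 was 5.13-fold higher after injury with an adjusted p of 0.125. Against this stand 7.41% of 14274 tested genes called in MRL (2 of the 10 here) and 1.07% of 14424 called in C57 (0 of 10 by edgeR, 6 of 10 at an unadjusted p under 0.05, and 1 of 10 by DESeq2, which called 5.48% of 16563 genes). At an unadjusted p under 0.05 the background was 15.3% of genes in C57 and 28.3% in MRL, where 2 of the 10 genes passed. The median log2 fold change of the 10 genes was 0.98 in C57 (all genes, -0.05) and -0.14 in MRL (all genes, -0.03).

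Timp1, an inhibitor of matrix metalloproteinases that is induced in many wounds, had 42.9, 49.7, 68.3 and 89.4 CPM in the uninjured MRL libraries and 662, 1510, 528 and 5090 CPM in the injured libraries, which are always listed in the order BI-270, BI-272, BI-274, BI-275. The groups did not overlap, and BI-275 stood far above the other injured libraries, with Timp1 making up 0.493% of all its counts. The log2 fold change was 4.97 (SE 0.76, 95% interval 3.28 to 6.67), with an adjusted p of 0.00466 in edgeR. Without BI-275 it was 3.85 (adjusted p = 0.00212), and Timp1 was called whichever of the 8 libraries was left out. In C57 tendon Timp1 had 67.3, 51.8, 100.1 and 13 CPM before injury and 128, 426, 484 and 196 CPM after injury, listed throughout as BI-181, BI-183, BI-184, BI-185. All 4 injured libraries lay above all 4 uninjured ones, and the lowest uninjured value was that of replicate 4. The log2 fold change was 2.36 (SE 0.62, 95% interval 0.95 to 3.77, edgeR adjusted p = 0.125). It was called with C57 uninjured replicate 4 left out (2.03, adjusted p = 0.0484) and with both replicate 4 and BI-181 left out (2.34, adjusted p = 0.0081), and DESeq2 called it on all 8 libraries (2.42, adjusted p = 0.0024).

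Timp4, an inhibitor best known from heart tissue, had 33.2, 41.4, 18.9 and 22.2 CPM in uninjured MRL tendon and 2.23, 0, 6.71 and 0.892 CPM after injury. Every injured library lay below every uninjured one, and BI-272 had no count. The log2 fold change was -3.54 (SE 0.96, 95% interval -5.66 to -1.42, edgeR adjusted p = 0.0408). The call was close to the threshold: it was lost, at adjusted p of 0.0666 to 0.114, when any uninjured MRL library, BI-270 or BI-275 was left out, and held without BI-272 or BI-274, while the log2 fold change stayed between -4.76 and -3.13. In C57 tendon Timp4 had 17.1, 13.3, 11.3 and 17.6 CPM before and 13.7, 3.03, 1.17 and 9.81 CPM after injury. The groups overlapped in BI-181, and the log2 fold change of -1.13 (SE 0.67, edgeR adjusted p = 0.461) did not pass.

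**Figure D2:**
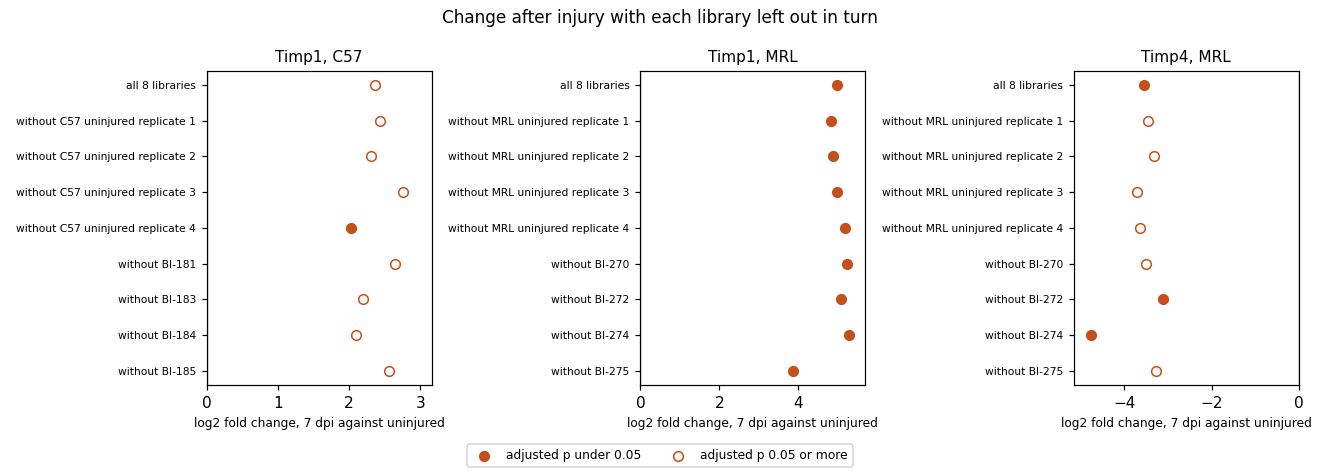
The log2 fold change after injury (horizontal axis) is shown for the fit on all 8 libraries and with each library left out, for Timp1 in C57, Timp1 in MRL and Timp4 in MRL, with filled points where the adjusted p was under 0.05. Timp1 in MRL is filled throughout, Timp1 in C57 only without C57 uninjured replicate 4, and Timp4 in MRL with all libraries and without BI-272 or BI-274.

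Timp2, the inhibitor with the highest level per exon length in 3 of the 4 groups, did not pass in either strain. It had 3023, 3143, 2939 and 3074 CPM in uninjured MRL tendon, with an SD of 2.82% of the mean, and 2817, 2334, 2752 and 921 CPM after injury. The injured values all lay below the uninjured ones, with BI-275 far below the rest, and the log2 fold change was -0.46 (SE 0.30, edgeR adjusted p = 0.343), or -0.20 without BI-275. In C57 tendon it had 2822, 3096, 3542 and 1119 CPM before and 1663, 2231, 2370 and 2893 CPM after injury, and the groups overlapped (-0.26, SE 0.35, edgeR adjusted p = 0.791).

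Timp3, the matrix-bound inhibitor of ADAMTS enzymes, had 274, 288, 253 and 218 CPM in uninjured C57 tendon and 130, 138, 176 and 234 CPM after injury. BI-185 lay within the uninjured range and the other 3 injured libraries lay below it. The log2 fold change was -0.66 (SE 0.22, 95% interval -1.15 to -0.16), with an unadjusted p of 0.0149 and an adjusted p of 0.211 in edgeR. In MRL tendon it had 537, 411, 452 and 222 CPM before and 267, 227, 496 and 484 CPM after injury, with overlapping groups (-0.13, SE 0.32, edgeR adjusted p = 0.826).

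**Figure D3:**
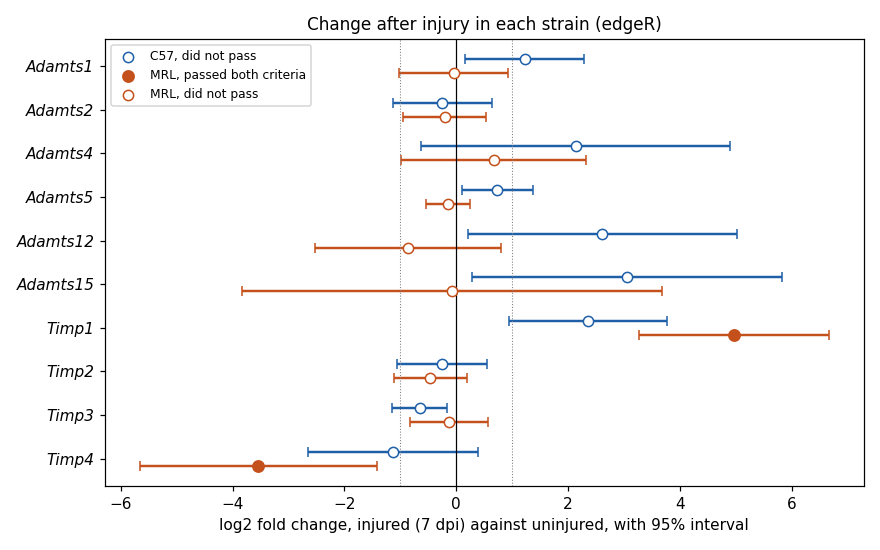
Points give the log2 fold change of each gene after injury (horizontal axis) with its 95% interval, for C57 in blue and MRL in orange, filled where both criteria were passed, and dotted lines mark -1 and 1. Timp1 and Timp4 in MRL are the filled points, and the C57 intervals of Adamts1, Adamts5, Adamts12 and Adamts15 lie above 0 without passing after adjustment.

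Among the proteases that cleave aggrecan and versican, no change after injury passed in either strain. Adamts5, a major aggrecanase of mouse cartilage, had 51.3, 52.0, 37.0 and 22.3 CPM in uninjured C57 tendon and 53.2, 67.8, 85.4 and 73.1 CPM after injury. The groups did not overlap, by a small gap, and the log2 fold change was 0.74 (SE 0.28, 95% interval 0.10 to 1.37, edgeR adjusted p = 0.264). With C57 uninjured replicate 4 and BI-181 left out it was 0.69 with an adjusted p of 0.0494, below the size set for a call. In MRL tendon the same protease had 56.5, 49.4, 65.9 and 64.0 CPM before and 57.7, 43.4, 65.2 and 46.6 CPM after injury (-0.14, SE 0.18, edgeR adjusted p = 0.647).

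Adamts1, a protease that also binds vascular endothelial growth factor, had 8.88, 2.40, 4.02 and 9.35 CPM in uninjured C57 tendon and 17.7, 14.3, 16 and 11.4 CPM after injury. All injured libraries were higher (log2 fold change 1.22, SE 0.47, 95% interval 0.16 to 2.29, edgeR adjusted p = 0.265). In MRL tendon it had 4.64, 19.6, 26.9 and 18.5 CPM before and 13, 14.4, 17.2 and 22.7 CPM after injury (-0.04, SE 0.44, edgeR adjusted p = 0.961). Replicate 1, with 4.64 CPM, was the uninjured MRL library that lay within the uninjured C57 range, and the other 3 lay above it.

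Adamts15, a further protease of the aggrecan-cleaving group, had 3.63, 0.324, 1.93 and 0 CPM in uninjured C57 tendon and 1.92, 23.65, 16.4 and 8.88 CPM after injury. The groups overlapped through BI-181, the library with skeletal muscle transcripts, which had the lowest injured value. The log2 fold change was 3.05 (SE 1.23, 95% interval 0.28 to 5.82, edgeR adjusted p = 0.287). It was 4.03 without C57 uninjured replicate 1, and with C57 uninjured replicate 4 and BI-181 left out it was 3.05 with an adjusted p of 0.0389. In MRL tendon it was at 0, 0, 6.45 and 0.644 CPM before and 0, 3.31, 3.18 and 0.279 CPM after injury, near the 3-count level in several libraries (-0.07, SE 1.70, edgeR adjusted p = 0.984). It was 2.97 on the log2 scale without uninjured MRL replicate 3, 0.33 without BI-270 and 0.28 without BI-275, so its sign is not determined.

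Adamts4, an aggrecanase that inflammatory cytokines induce in cartilage, had 1.01, 0.0649, 2.55 and 0.0658 CPM before and 1.12, 10.3, 3.96 and 1.42 CPM after injury in C57 tendon. In MRL tendon it had 1.92, 0.650, 3.35 and 5.87 CPM before and 8.37, 1.63, 2.43 and 6.19 CPM after injury. The groups overlapped in both strains, with log2 fold changes of 2.13 (SE 1.23, edgeR adjusted p = 0.442) and 0.67 (SE 0.75, edgeR adjusted p = 0.598). The C57 value was 1.21 without BI-183 and 3.39 without C57 uninjured replicate 3.

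Adamts12 had 1.75, 0.908, 0.309 and 0 CPM in uninjured C57 tendon and 2.42, 7.60, 5.13 and 3.84 CPM after injury. The groups did not overlap, and the log2 fold change was 2.62 (SE 1.06, 95% interval 0.22 to 5.01, edgeR adjusted p = 0.292), or 3.47 without C57 uninjured replicate 1. In MRL tendon its values were 1.53, 1.66, 3.94 and 2.65 CPM before and 0.841, 2.04, 2.16 and 0.334 CPM after injury (-0.86, SE 0.75, edgeR adjusted p = 0.496).

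Adamts2, the procollagen N-proteinase, did not pass in either strain. It had 231, 213, 298 and 77.4 CPM before and 118, 208, 239 and 150 CPM after injury in C57 tendon (log2 fold change -0.25, SE 0.39, edgeR adjusted p = 0.818). It had 271, 268, 249 and 170 CPM before and 290, 220, 240 and 76.5 CPM after injury in MRL tendon (-0.21, SE 0.34, edgeR adjusted p = 0.726). The lowest values of Adamts2 were those of C57 uninjured replicate 4 and BI-275, the libraries that also had the lowest Timp2.

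In C57 tendon the injured and uninjured libraries did not overlap for 4 of the 10 genes (Adamts1, Adamts5, Adamts12 and Timp1), all higher after injury, against 11.7% of all tested genes in either direction. In MRL tendon this held for 3 of the 10 (Timp1 higher, Timp2 and Timp4 lower), against 22.9%. With C57 uninjured replicate 4 and BI-181 left out, the C57 calls were Timp1 and Adamts15 (2 of 10, against 5.97% of 14515 genes).

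Summed levels of several cell type marker lists moved with these comparisons. The summed level of 8 macrophage markers was 270 to 679 CPM in uninjured and 1300 to 2209 CPM in injured C57 tendon, and 292 to 494 and 626 to 1229 CPM in MRL tendon. In each strain 4 of the 8 were called higher (Adgre1, C1qa, Cd68 and Mrc1 in C57, and Adgre1, Cd14, Cd68 and Fcgr1 in MRL). The 8 tenocyte markers summed to 11170 to 21950 CPM in uninjured and 15100 to 30200 CPM in injured C57 tendon (0 called), and to 15890 to 34570 and 28060 to 59900 CPM in MRL tendon (1 called higher). The summed level of 6 endothelial markers was 16 to 78.1 CPM in uninjured and 92.5 to 151 CPM in injured C57 tendon, and 1.86 to 66.3 and 0.925 to 24.4 CPM in MRL tendon, where Pecam1 had no count in uninjured replicate 1. The 6 fibroblast markers summed to 1171 to 1594 and 2033 to 4411 CPM in C57, and to 2309 to 5195 and 5302 to 7630 CPM in MRL tendon, with BI-275 the highest. The 6 chondrocyte markers summed to 5702 to 23180 CPM in uninjured and 3739 to 8669 CPM in injured C57 tendon, and to 11020 to 23020 and 3331 to 7192 CPM in MRL tendon. None of the endothelial markers was called in either strain, 1 of the 6 fibroblast markers was higher in each, and of the chondrocyte markers 0 were called in C57 and 1 was higher and 1 lower in MRL tendon. Sums follow the most abundant markers, and list medians can differ from them. The median log2 fold change in C57 and MRL tendon was -1.24 and -0.09 for chondrocyte, 0.995 and 0.45 for fibroblast markers. It was 1.73 and -0.0018 for endothelial, 1.99 and 1.12 for macrophage and 0.38 and 0.62 for tenocyte markers. The 6 smooth muscle and pericyte markers summed to 209 to 932 CPM in uninjured and 528 to 4300 CPM in injured C57 tendon (1 called higher), and to 405 to 537 and 291 to 414 CPM in MRL tendon (1 called lower). The 6 Schwann cell markers summed to 462 to 1582 and 904 to 2134 CPM in C57, and to 1159 to 1348 and 523 to 949 CPM in MRL tendon, with 0 called of the 5 tested in C57 and the 4 tested in MRL tendon. The 6 adipocyte markers ranged from 15.5 to 111 and 25.2 to 247 CPM in C57, and from 4.25 to 87.5 and 0 to 179 CPM in MRL tendon, with 0 called of the 5 tested in C57 and the 2 tested in MRL tendon. Of the 12 skeletal muscle markers, 6 were tested in C57 with 0 called, and 3 in MRL tendon with 1 called higher (Tnni2, a troponin subunit), where their summed level was 5.56 to 11.1 CPM before and 6.22 to 13.8 CPM after injury. The part of these cell types in the values of the 10 genes was not tested, and in bulk tendon fewer cells of a type and less RNA per cell cannot be told apart.

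The response to injury was then compared between the strains in 1 fit of all 16 libraries, whose interaction term is the MRL log2 fold change minus the C57 one. None of the 10 genes passed in edgeR, nor did any of the 15947 tested genes (0%), although 1939 genes had an unadjusted p under 0.05 (12.2%) and DESeq2 called 198 (1.15%), none of them among the 10. An unadjusted p under 0.05 was found for Adamts5, Adamts12 and Timp1, 3 of the 10. The interaction was -0.93 for Adamts5 (SE 0.34, 95% interval -1.65 to -0.21, edgeR adjusted p = 0.344). It was -3.52 for Adamts12 (SE 1.33, 95% interval -6.34 to -0.70, edgeR adjusted p = 0.349), or -4.37 without C57 uninjured replicate 1. It was 2.55 for Timp1 (SE 0.99, 95% interval 0.43 to 4.67, edgeR adjusted p = 0.355), and 1.44 without BI-275. For Timp4, which was called in MRL tendon alone, the interaction was -2.45 (SE 1.29, 95% interval -5.19 to 0.29, edgeR adjusted p = 0.464), so a difference between the strains was not shown, and it was -3.68 without BI-274. The interaction of Adamts1 was -1.32 (SE 0.67, edgeR adjusted p = 0.445) and that of Adamts15 was -3.18 (SE 2.29, edgeR adjusted p = 0.618), or -0.12 without uninjured MRL replicate 3. The estimate was -1.53 for Adamts4 (SE 1.47), with -2.79 without C57 uninjured replicate 3 and -0.57 without BI-183. It was -0.01 for Adamts2 (SE 0.56), whose sign turned with upper-quartile factors and without a filter.

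Before injury, no gene of the set differed between MRL and C57 tendon past the criteria. Of 14055 tested genes edgeR called 0%, with 7.87% at an unadjusted p under 0.05, and DESeq2 called 104 (0.648%), none of them in the set. Adamts15 was not tested here because its counts were too low, and of the 9 tested genes 3 had an unadjusted p under 0.05 (Adamts1, Timp3 and Timp4). Timp4 was the 1 gene of 9 whose strains did not overlap, against 5.04% of all genes. Its log2 fold change, MRL over C57, was 0.94 (SE 0.30, 95% interval 0.27 to 1.62, edgeR adjusted p = 0.621). Timp3 was higher in 3 of the 4 MRL libraries than in all C57 libraries (0.63, SE 0.25, edgeR adjusted p = 0.621). Without C57 uninjured replicate 4 and MRL uninjured replicate 4 the Timp3 difference had an adjusted p of 0.00457 at a log2 fold change of 0.77, below the size set for a call. The Timp4 difference was then 1.15 with an edgeR adjusted p of 0.0618, and was not called. Adamts1 was higher in MRL replicates 2 to 4 than in all C57 libraries (1.47, SE 0.60, edgeR adjusted p = 0.621).

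At 7 dpi, 3.43% of 14626 genes differed between the strains and none of the 10 genes did by edgeR. DESeq2 called Timp1, Timp3 and Adamts12, 3 of 10, against 8.48% of 17551 genes. At an unadjusted p under 0.05, 4 of the 10 genes passed (Adamts12, Adamts15, Timp1 and Timp3), against 21.2% of all genes, and the libraries of the strains did not overlap for Adamts12 and Timp1, 2 of 10, against 16% of all genes. Timp1 had a log2 fold change, MRL over C57, of 2.63 (SE 0.75, 95% interval 0.96 to 4.31, edgeR adjusted p = 0.086), or 1.59 without BI-275. Timp3 had 1.10 (SE 0.30, 95% interval 0.42 to 1.78, edgeR adjusted p = 0.0765), with overlap between BI-185 and the lowest MRL library. Adamts12 differed by -1.83 (SE 0.68, 95% interval -3.34 to -0.31, edgeR adjusted p = 0.164), and Adamts15 by -2.91 (SE 1.18, 95% interval -5.55 to -0.28, edgeR adjusted p = 0.194). Adamts5 differed by -0.41 (SE 0.20, edgeR adjusted p = 0.276) and Adamts1 by 0.15 (SE 0.27, edgeR adjusted p = 0.786). In the same comparison 3 of 8 macrophage, 1 of 6 endothelial, 2 of 6 smooth muscle and pericyte and 2 of 5 tested Schwann cell markers were called lower in MRL tendon, and 2 of 6 chondrocyte, 1 of 6 fibroblast and 1 of 8 tenocyte markers were called higher. The median log2 fold change, MRL over C57, was 2.48 for chondrocyte, 0.90 for tenocyte and -0.81 for fibroblast markers. The fibroblast list as a whole thus did not go with its 1 called marker. The part of these markers in the strain differences was not tested.

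Levels of different genes were compared per kilobase of exon. Timp2 had the highest level in uninjured C57, at 679 ± 272 CPM per kilobase (SD, n = 4), followed by Timp1 at 65.4 ± 40.8, Timp3 at 31.7 ± 3.77, Adamts2 at 21.9 ± 9.90 and Adamts5 at 3.77 ± 1.30. The order of these 5 genes was the same in uninjured MRL tendon, with Timp2 at 782 ± 22.0, Timp1 at 70.5 ± 23.5, Timp3 at 49.8 ± 16.4, Adamts2 at 25.7 ± 5.11 and Adamts5 at 5.46 ± 0.701 CPM per kilobase. With the longest transcript as length, the uninjured MRL order of Timp1 (70.9) and Timp3 (85.9) turned, and the C57 order did not. Timp1 and Timp3 differed by less than the SD of Timp1 in both strains, and Timp3 and Adamts2 by less than the SD of Adamts2 in C57, so these neighbours are not separated by their means. The lowest levels per kilobase in uninjured C57 were those of Adamts4, Adamts15 and Adamts12, all at or below 0.192. After injury Timp1 reached 347 ± 195 in C57, second to Timp2 at 588 ± 130. In injured MRL tendon Timp1, at 2193 ± 2410, stood above Timp2, at 566 ± 227, with the 4 libraries from 594 to 5732 CPM per kilobase. Timp1 exceeded Timp2 in 3 of these 4 libraries, with Timp1 to Timp2 ratios of 1.03, 2.84, 0.841 and 24.2, so the difference of the means is within the spread.

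As a share of the summed per-kilobase level of the 4 TIMPs, Timp1 was 4.41 to 10.7% in uninjured C57 libraries and 22.2 to 46.4% in injured ones. It was 5.40 to 10.9% in uninjured MRL libraries and 43.6 to 95.1% in injured ones, the highest in BI-275. These shares depend on the scaling by length. As a share of TIMP counts, Timp1 was 1.18 to 2.62% in uninjured and 13.9 to 78.4% in injured MRL libraries. By counts it exceeded Timp2 in BI-275 alone. Timp2 was 84.8 to 89.2% over the 8 uninjured libraries, 51.8 to 74.7% in injured C57 and 3.92 to 51.8% in injured MRL libraries. Since shares sum to the whole, a lower Timp2 share is not by itself a lower Timp2 level. Timp3 made up 2.95 to 8.07% of the sum in uninjured and 0.985 to 4.47% in injured libraries.

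**Figure D4:**
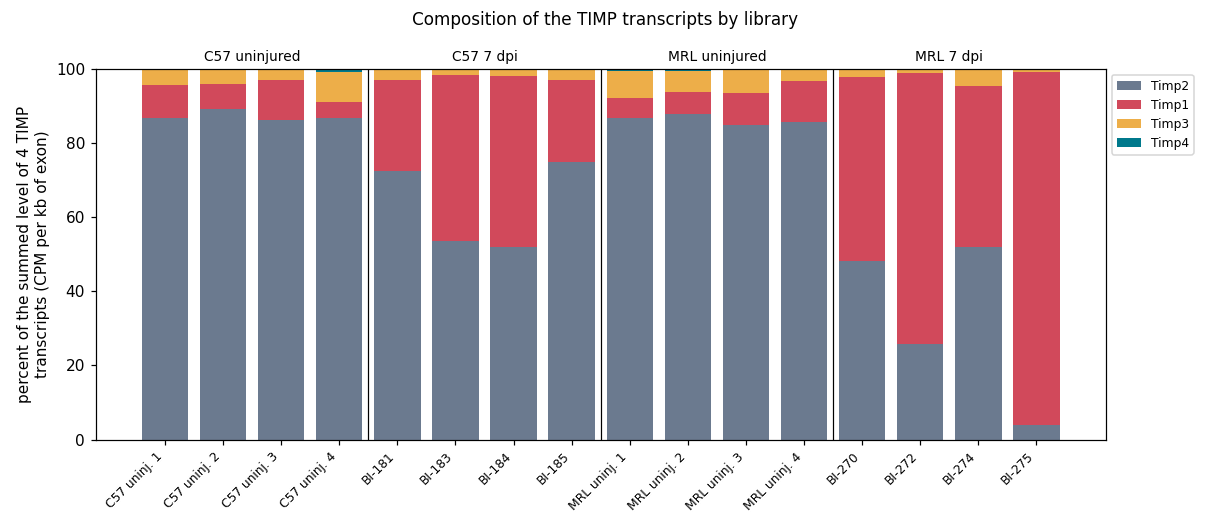
Each bar is 1 library, divided into the percent of the summed TIMP level (CPM per kilobase of exon) that each TIMP contributes, with vertical lines between the groups. Timp1 takes 4.41 to 10.9% in the uninjured libraries, 22.2 to 46.4% in injured C57 and 43.6 to 95.1% in injured MRL libraries.

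The summed TIMP level exceeded that of the 6 ADAMTS genes in every library. The ratio was 26.3 to 31.5 in uninjured C57, 27.4 to 37.5 in injured C57, 22.5 to 31.6 in uninjured MRL and 36.9, 74.7, 37.9 and 332 in the injured MRL libraries. The 2 C57 groups overlapped and the 2 MRL groups did not. Timp1 supplied 5.40 to 10.9% of the TIMP sum in uninjured and 43.6 to 95.1% in injured MRL libraries. The MRL log2 fold changes of Timp2, Timp3 and Timp4 were -0.46, -0.13 and -3.54. The higher ratio in injured MRL tendon therefore rests on Timp1 and is not a rise of the TIMPs as a set. Among the proteases Adamts2 supplied 45.2 to 86.6% of the summed ADAMTS level, and Adamts5 9.30 to 25.6%. In C57 tendon the share of Adamts2 was 68.3 to 86.6% before and 58.5 to 65.0% after injury, without overlap, and in MRL tendon it was 62.4 to 81.4% and 45.2 to 76.4%. The Adamts2 level itself overlapped between the C57 groups (-0.25, edgeR adjusted p = 0.818). Its lower share there is not by itself a lower level.

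Of the 45 pairs among the 10 genes, Adamts2 and Timp2 had the highest correlation of log2 CPM over the 16 libraries, with a Pearson r of 0.89 and a Spearman rho of 0.63. The r was 0.93 in the 8 uninjured and 0.86 in the 8 injured libraries, and 0.62 once BI-275 and C57 uninjured replicate 4 were left out, so much of the relation rests on those libraries. Adamts5 and Adamts12 followed with r of 0.88 and rho of 0.83, and 0.76 without C57 uninjured replicate 4 and BI-184. Timp1 and Timp4 had the lowest value of the 45 pairs. Timp1 separates the libraries by injury within each strain. Within the 8 injured libraries, which pool both strains, r was -0.73, against -0.17 within the 8 uninjured ones. With the mean of each of the 4 groups removed it was -0.55. These correlations are descriptions over libraries that also differ in depth and tissue content, and the pairs were picked for their values.

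**Figure D5:**
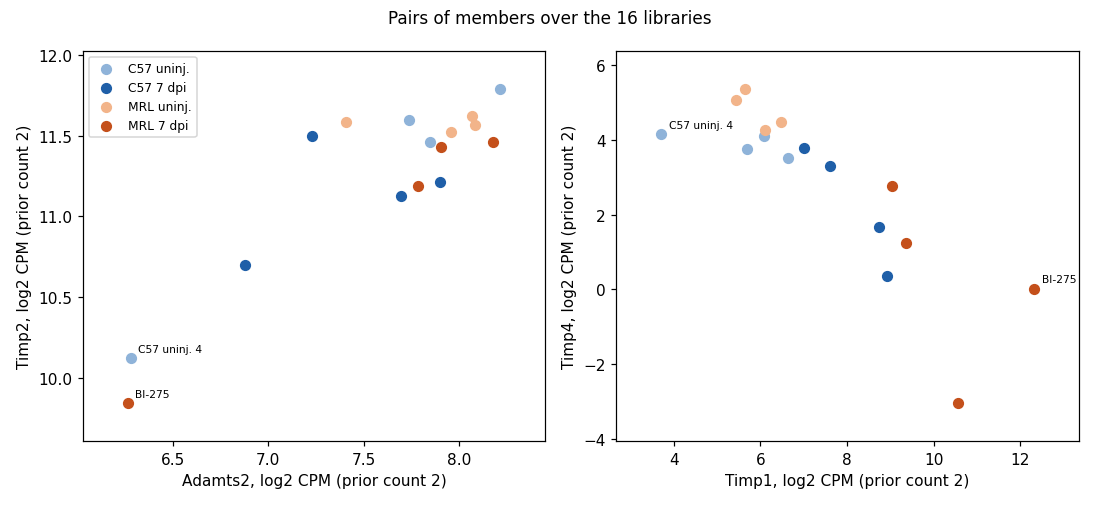
Log2 CPM of Adamts2 and Timp2 (left) and of Timp1 and Timp4 (right) is plotted with 1 point a library, coloured by group. BI-275 and C57 uninjured replicate 4 lie at the low end of both axes on the left, and on the right the injured libraries run from high Timp4 and low Timp1 to the opposite (r of -0.73 over the 8 injured libraries).

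Over the 16 libraries and 15947 genes, the genes whose log2 CPM was most like that of Timp1 were Tnfrsf12a, the receptor of the cytokine Tweak (r = 0.96), AA467197 (0.96) and Pdpn, the membrane glycoprotein podoplanin (0.95). With group means removed r was 0.87, 0.84 and 0.75. The genes most like Timp4 were Emx2os (0.92), Chadl, a chondroadherin-like matrix protein (0.91), and Zfp30 (0.91), and 0.82, 0.85 and 0.85 with group means removed. The correlations include the difference between the groups and have n = 16.

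Other ADAMTS genes did not pass after injury. Of 13 further ADAMTS genes, 7 could be tested in C57 and 6 in MRL tendon, and none was called (median log2 fold change 0.40 and -0.15). Of 7 ADAMTS-like genes, which lack a protease domain, 6 were tested in each strain and none was called (0.02 and -0.49). Of 6 proteoglycan substrates, 4 were tested in C57 and none was called (-0.21), and 1 of 5 tested in MRL tendon rose: Acan, the core protein of aggrecan, by 1.91 on the log2 scale (SE 0.52, edgeR adjusted p = 0.0421; the list's median was -0.10).

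Of 8 procollagens and other matrix substrates, 0 of 8 were called in C57 and 4 of 8 rose in MRL tendon (median log2 fold change 0.88 and 1.04). They were Fbn1, which forms microfibrils (1.39, edgeR adjusted p = 0.0025), Col5a1, a chain of the collagen that regulates fibril diameter (1.53, edgeR adjusted p = 0.00524), Fn1, fibronectin (1.68, edgeR adjusted p = 0.0277), and Col3a1. For this and the other gene lists, the shares called over all tested genes were 1.07% in C57 and 7.41% in MRL tendon. By edgeR no gene of any of these lists was called in the interaction, where the median of this list was 0.14. A difference between the strains was thus not shown for them. Of 8 metalloproteinases that TIMPs inhibit, 7 were tested in each strain (median 1.56 in C57 and 0.98 in MRL). Mmp2, a gelatinase, rose in C57 tendon by 1.76 on the log2 scale (SE 0.34, edgeR adjusted p = 0.0484), with 129 to 156 CPM before and 378, 673, 247 and 736 CPM after injury. Adam12 (5.76, SE 0.88, edgeR adjusted p = 0.00407) and Mmp3, stromelysin 1 (5.52, SE 1.16, edgeR adjusted p = 0.0199), rose in MRL tendon. Mmp3 had 208, 511, 197 and 2584 CPM in the injured MRL libraries, the highest in BI-275, which also had the highest Timp1.

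Of 6 genes of protease activation, clearance and other inhibition, 5 were tested in each strain, with 0 called in C57 and 2 lower in MRL tendon (median -0.34 and -0.69). Reck, a membrane-anchored metalloproteinase inhibitor, fell by 1.33 on the log2 scale (SE 0.16, edgeR adjusted p = 0.00172), and Pcsk6, a proprotein convertase, fell by 1.35 (SE 0.28, edgeR adjusted p = 0.0148). Of 7 cytokines that can induce these genes, 5 were tested in each strain, with 0 called in C57 and 3 higher in MRL tendon (median 0.63 and 2.20). Over all genes 1.07% were called in C57 and 7.41% in MRL tendon. In the interaction 0 of the 6 tested cytokines passed by edgeR. Osm, a cytokine of the interleukin 6 family, had no count in the 4 uninjured MRL libraries and the injured level was at least 11.1-fold higher than a floor of 3 counts per library (edgeR adjusted p = 0.00789). Tgfb1 rose by 1.07 on the log2 scale (edgeR adjusted p = 0.0241). Il1b had 7, 0, 0 and 0 counts in the uninjured and 15, 115, 59 and 299 in the injured MRL libraries, highest in BI-275 (5.66, SE 1.45, edgeR adjusted p = 0.0327).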

How the data were processed

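The authors trimmed single-end reads with Trimmomatic 0.36, mapped them with STAR 2.5.2b to GRCm38.p5, and deposited whole-number counts per gene symbol without normalization. The submitters' processing notes also name Subread 1.5.0p3, featureCounts and DESeq2 1.14.1. The gene annotation and strand setting are not given in the sources used here. The methods describe pre-amplified low-input libraries, whereas the labels name a TruSeq kit, and no molecular identifiers are named, so counting error understates technical error.

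Groups came from the labels. Each comparison was fitted on its own 8 libraries, and the interaction on all 16, with edgeR 4.0.16 in R 4.3.3 (filterByExpr, TMM, robust quasi-likelihood). SE were derived from the F statistic. CPM used TMM-adjusted library sizes, and log2 CPM a prior count of 2. Libraries held 12552424 to 23741648 counts, and 3 counts were taken as the floor. Lengths and coordinates came from GENCODE M21. The scripts were tested on simulated data. Alternatives were DESeq2 1.42.0, other scalings and filters, a non-robust fit, a joint fit, a replicate block, and libraries left out. The 4 libraries of a group are separate animals, and no pair of libraries of a group agreed within sampling noise (chi-square per degree of freedom at least 22.6).

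The members and gene lists were chosen with earlier results of these data known. All members are named, and from each list up to 3 called genes in order of the smaller adjusted p. Beyond these, Col3a1, the called macrophage markers and Pecam1 were named after their values were seen. Without a known strand setting, counts of genes whose exons overlap another gene are uncertain, and 1 such overlap is not reported here.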

Additional observations from a re-analysis of the deposited data

Results flagged for a closer look

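Timp2 in BI-275 stood apart from the other injured MRL libraries, with 9.85 log2 CPM against 11.19 to 11.46 in the other 3. The gap to the nearest library was 0.832 of the range of the group, above Dixon's 95% critical value for 4 samples. It was the 1 such library of 40 groups of values examined, and chance flags about 1 in 20.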

How the results depend on the processing

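Of 847 values of the 10 genes under the alternatives, 800 kept their direction and side of the threshold, 8 lost and 7 gained a call, and 32 changed sign. The sign changes touched 11 of 49 gene results, each with an absolute log2 fold change of at most 0.26. In C57 tendon 0 genes were called, but 1 by DESeq2, 2 without C57 uninjured replicate 4 and BI-181, and 0 to 1 with single libraries left out. In MRL tendon 2 were called, but 1 without a filter, 1 with at least 10 counts in every library (Timp4 was then not tested), 1 without MRL uninjured replicate 4, and 1 to 2 with single libraries left out. Between injured strains DESeq2 called 3 against 0. The cause of these changes was not tested. The interaction and the uninjured strains gave 0 under each alternative run. The replicate block in the uninjured strains also called 0; same-numbered libraries are different animals and their deviations correlated at -0.262 to 0.0155, so the numbers do not pair them.

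Reversed values were as follows. The interaction of Adamts2 was 1.20771e-05 with upper-quartile factors and 0.00376 without a filter. With the libraries that stand apart left out (BI-275 was kept), the uninjured strain difference was -0.46 for Timp1 and -0.065 for Timp2. The injured one was -0.19 for Adamts4. With single libraries left out, the MRL injury change ranged from -0.36 to 0.23 for Adamts1, -0.62 to 2.97 for Adamts15, -0.43 to 0.069 for Adamts2 and -0.32 to 0.048 for Timp3. The interaction ranged from -0.25 to 0.26 for Adamts2 and -0.43 to 0.0017 for Timp2. The uninjured strain difference ranged from -0.054 to 0.45 for Adamts2, -0.23 to 0.50 for Timp1 and -0.057 to 0.37 for Timp2, and the injured one from -0.26 to 1.08 for Adamts4 and -0.19 to 0.23 for Timp2.

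Counts over all genes moved more. The C57 count of 155 became 107 with upper-quartile factors, 907 with DESeq2, 269 with at least 10 counts in every library, 367 in the joint fit, 867 without the 2 libraries that stand apart, and 10 (without C57 uninjured replicate 3) to 750 (without C57 uninjured replicate 4) with single libraries left out. The MRL count of 1057 became 1818 with DESeq2 and 689 (without MRL uninjured replicate 1) to 1260 with single libraries left out. The injured strain count of 502 became 1488 with DESeq2, 227 in the joint fit and 231 (without BI-185) to 481 with single libraries left out. The uninjured strain count of 0 became 104 with DESeq2, 1 without a filter or with at least 10 counts in every library, 0 to 3 with single libraries left out, and 497 without both replicates 4. Scaling by total counts moved the median log2 fold change of all genes from -0.05 to 0.08 in C57, from -0.03 to -0.14 in the interaction and from -0.06 to -0.20 between injured strains, where the share of higher calls went from 45.2% to 32.9%; no call of the 10 genes changed under it. With the longest transcript as length, the mean Timp3 share in uninjured C57 was 7.56% in place of 4.75%. Adamts4, Adamts12 and Adamts15 lay near the 3-count floor in several libraries, which limits what their folds can show.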
